A study of Mus musculus with 6 samples.

Results

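The neurons that connect the eye to the brain, retinal ganglion cells, come in many subtypes that can be told apart by the transcription factors they make. The members described are 7 such factors chosen by name: the T-box factors Eomes and Tbr1, the chromatin organiser Satb1, the forkhead factors Foxp1 and Foxp2, the basic helix-loop-helix factor Neurod2 and the zinc finger factor Zic1. Of the 7, 5 matched the gene names of the table (Eomes, Tbr1, Satb1, Foxp1 and Neurod2), with 11 of its 26691 transcript rows and among 15450 named genes. Foxp2 and Zic1 are not analysed here. Mice were about 3 to 4 weeks old at the start. Their eyes received an adeno-associated virus (AAV) for 2 weeks that carried either Sox11, a transcription factor of developing neurons (AAV-Sox11), or PLAP in its place (AAV-Control, genotype AAV-PLAP). The optic nerve was then crushed 3 days before death, in controls and AAV-Sox11 animals alike, and no uncrushed library is analysed here. Live Thy1-positive cells were sorted from 3 pooled retinas of 3 animals per library, and each group has 3 libraries, A, B and C. The sources used here name neither the strain nor the promoter and serotype of the virus, and sorting by Thy1 selects no ganglion cell subtype. The comparison asks whether the factors that mark ganglion cell subtypes differ in level when Sox11 is supplied.

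In the adult retina these factors persist in the subtypes that they help to specify, and so serve as subtype labels. Eomes is required for the intrinsically photosensitive ganglion cells that contain melanopsin. Tbr1 shapes ganglion cell types whose dendrites lie in the OFF part of the inner plexiform layer, and Satb1 is known from direction-selective ganglion cells, where it supports the bistratified dendrite. Foxp1 is found, together with Foxp2, in a group of ganglion cells with asymmetric dendrites. Neurod2 is made by subsets of ganglion and amacrine cells, so its transcripts are not particular to ganglion cells. The measurements are of sorted bulk cells, in which fewer cells of a subtype and less RNA per cell cannot be told apart.

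The bases before the annotated starts are shown for the 3 members that have a single RefSeq start each, to set the member with the largest difference beside its T-box relative and the bHLH factor. They are the 250 bases before the start (RefSeq, GRCm38.p6, 5′ to 3′ on the gene's strand), and capitals mark matches to AACAAT or AACAAAG (SOX-type), AGGTGTGA (T-box), GTAAACA (forkhead) or CAGATG (E-box), searched on both strands.
Eomes, chr9:118477939-118478188, plus strand: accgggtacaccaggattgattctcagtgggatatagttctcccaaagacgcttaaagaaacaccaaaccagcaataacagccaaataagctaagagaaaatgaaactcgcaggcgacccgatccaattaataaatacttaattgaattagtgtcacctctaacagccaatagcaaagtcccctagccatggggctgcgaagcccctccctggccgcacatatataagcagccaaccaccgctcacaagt
Tbr1, chr2:61804203-61804452, plus strand: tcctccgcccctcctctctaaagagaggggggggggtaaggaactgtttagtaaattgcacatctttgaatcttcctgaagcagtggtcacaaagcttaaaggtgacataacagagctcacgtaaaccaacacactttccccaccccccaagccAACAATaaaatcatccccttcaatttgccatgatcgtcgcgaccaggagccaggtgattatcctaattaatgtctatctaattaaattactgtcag
Neurod2, chr11:98329646-98329895, minus strand: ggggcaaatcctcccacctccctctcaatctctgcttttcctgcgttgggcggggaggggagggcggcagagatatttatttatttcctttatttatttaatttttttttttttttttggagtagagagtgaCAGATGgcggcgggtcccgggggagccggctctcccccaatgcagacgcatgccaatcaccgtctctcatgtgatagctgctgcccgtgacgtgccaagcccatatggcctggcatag
The Eomes window holds none of these letters, the Tbr1 window has AACAAT with its first base at -96, and the Neurod2 window has CAGATG at -118. Among 32851 windows of the same length, AACAAT or its reverse occurs in 9.42%, AACAAAG in 5.03%, AGGTGTGA in 1.12%, GTAAACA in 3.17% and CAGATG in 14.4%. Of the 11 windows of the 5 members, 6 hold a match, which includes 2 of the 3 Foxp1 windows and 2 overlapping windows of the 5 of Satb1, with AACAAAG or its reverse in each of these 4. The match in the 2 Satb1 windows is the same site, at -18 from one start and -148 from the other. The other windows with a match are those of Tbr1 and Neurod2. The share of all windows that hold any of these letters was not counted, so the 6 of 11 cannot be called many or few. A match describes letters only and shows no binding.

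Sox11 itself had scaled values of 131.1, 110.8 and 100.3 in the controls A, B and C and 179.3, 233.7 and 283.6 with AAV-Sox11. Every AAV-Sox11 library lay above every control, and the log2 fold change of 1.0 ± 0.20 (SE) did not pass (limma adjusted p = 0.0504). The deposited whole numbers summed to 10747985 to 11546892 per library. Of 10 ganglion cell markers, 8 were measured. Their summed level ranged from 6535 to 9796 in the controls and from 7725 to 10270 with AAV-Sox11. The rod markers, 8 of 8 measured, summed to 37010 to 58790 and to 23060 to 42280, and the amacrine markers, 9 of 10, to 22690 to 35820 and 31490 to 40020, so that the sorted cells held RNA of several retinal types. Control A stood apart in several marker lists: its cone markers (6 of 6 measured) summed to 2652, against 567.1 to 921.4 in the other libraries, and its bipolar markers (8 of 8) to 10580 against 6241 to 7535.

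Eomes had the largest difference of the measured members and was the lowest in level. Its scaled values were 16.5, 24.52 and 20.26 in the controls A, B and C and 37.54, 48.81 and 54.3 with AAV-Sox11. All 3 AAV-Sox11 libraries lay above all controls, and the same-day differences were 1.14, 0.96 and 1.38 on the log2 scale for A, B and C. The group means were 20.42 ± 4.01 and 46.88 ± 8.54 (SD, n = 3). The log2 fold change of 1.16 ± 0.25 (SE), or 2.24-fold in the fit, had a limma adjusted p of 0.0562, which did not pass 0.05. With the replicate block, which compares libraries made on the same day, Eomes rose with a limma adjusted p of 0.0445. The deposited values lack spread along a direction that lies mostly in the AAV-Sox11 libraries, which can make SDs and p-values too small; with that direction as a covariate the limma adjusted p of Eomes was 0.160. With a sex index (Xist against Y-linked genes) as a covariate it was 0.250, at 0.94 on the log2 scale. That index was higher in every AAV-Sox11 library than in every control, so its effect and that of the virus cannot be fully told apart. Leaving out control B gave a limma adjusted p of 0.0477, and leaving out any other library gave 0.0753 to 0.294. For Eomes the authors' deposited table gives 1.2 on the log2 scale and a false discovery rate of 0.00524. Beside it, 6 of 8 ganglion cell markers were positive, with a median log2 fold change of 0.48, and their part in the result was not tested.

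The Eomes gene lies on chromosome 9 (118478212 to 118486132, plus strand, GRCm38), and the table has 1 of its 3 annotated transcripts, the coding ENSMUST00000035020 with 6 exons and 3560 bases. An annotated antisense gene, Gm33460, overlaps it, so that without a stated strand setting reads of both cannot be told apart. Of all genes, 16.5% had a lower mean value than Eomes.

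Tbr1, the closest relative of Eomes among the measured members, had a negative fold change that did not pass. Its values were 109.7, 126.5 and 195.9 in the controls and 97.99, 99.71 and 146.8 with AAV-Sox11. Its groups overlapped, since the AAV-Sox11 library C lay above controls A and B, although each AAV-Sox11 library was below the control of its day (-0.16, -0.34 and -0.41 on the log2 scale). The log2 fold change was -0.31 ± 0.26 (SE, limma adjusted p = 0.499), and it was -0.06 without control C. Control C and AAV-Sox11 C, prepared on the same day, were the highest libraries of their groups for Tbr1. The difference between the responses of Eomes and Tbr1 was not tested.

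Satb1 had 188.3, 275.6 and 131.2 in the controls and 228.3, 290.8 and 224.2 with AAV-Sox11. Within each day the AAV-Sox11 library was the higher (0.28, 0.08 and 0.77 on the log2 scale), and across days the groups overlapped. The log2 fold change was 0.37 ± 0.26 (SE, limma adjusted p = 0.413). It was 0.11 without control C, which held the lowest value, 0.64 without control B, and -0.08 with the sex index as a covariate. Library B was the highest of both groups.

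Foxp1, summed over its 5 rows, had 128.1, 144.1 and 159.2 in the controls and 109.5, 103.9 and 112.6 with AAV-Sox11. All AAV-Sox11 libraries lay below all controls, and the means were 143.8 ± 15.5 and 108.7 ± 4.44 (SD, n = 3). The log2 fold change of -0.40 ± 0.14 (SE) did not pass (limma adjusted p = 0.146). Beside it, 4 of 7 microglia markers were measured, all 4 negative, with sums of 1006 to 1954 in the controls and 671.9 to 961.3 with AAV-Sox11; their part was not tested.

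Neurod2 had 246.6, 179.4 and 147.6 in the controls and 110.5, 126.7 and 130.7 with AAV-Sox11. Its groups did not overlap, and the gap was narrow for C (-0.17 on the log2 scale) and wide for A (-1.15), with -0.50 for B. The means were 191.2 ± 50.5 and 122.6 ± 10.7 (SD, n = 3). The log2 fold change was -0.61 ± 0.20 (SE, limma adjusted p = 0.129). It was -0.41 without control A, the library of highest Neurod2 and of the highest cone, bipolar and Muller glia markers, and -0.99 with the sex index, with limma adjusted p-values of 0.187 and 0.153. What part the other cells have in the value was not tested.

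**Figure D1:**
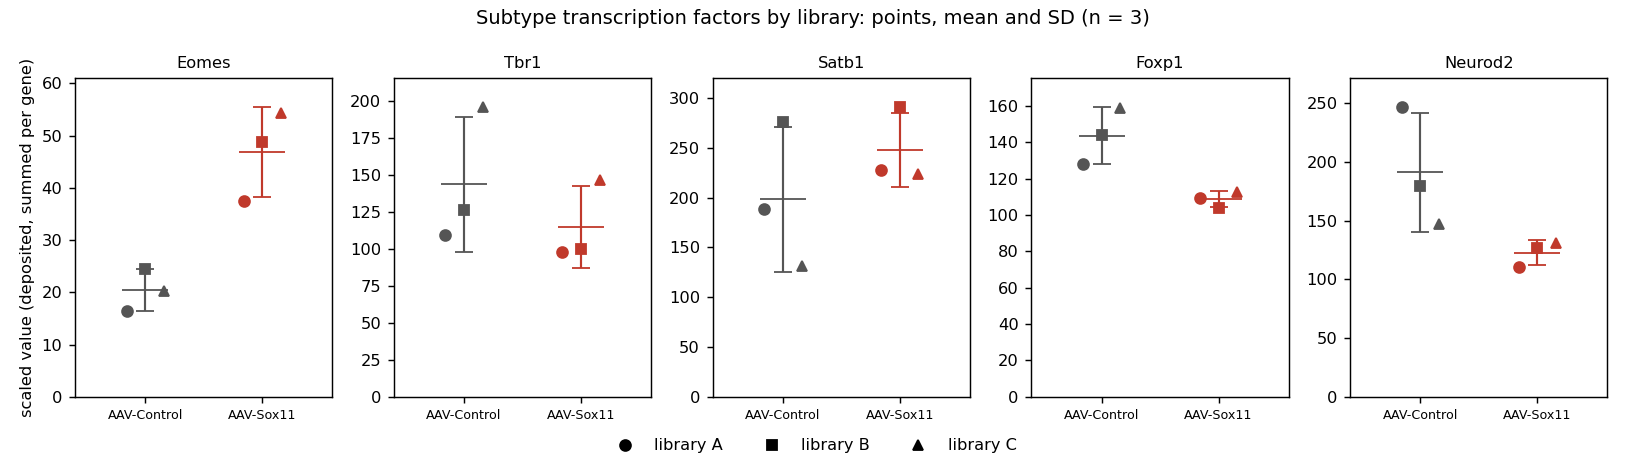
Scaled value (deposited, summed per gene) of each measured subtype factor by library, with control libraries in grey and AAV-Sox11 libraries in red, horizontal marks for means and bars for SD (n = 3), on axes that start at 0. Eomes is higher in all 3 AAV-Sox11 libraries (37.54 to 54.3 against 16.5 to 24.52), Foxp1 and Neurod2 are lower in all 3, and Tbr1 and Satb1 overlap.

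Across the 5 measured factors, 0 passed an adjusted p of 0.05 in limma, and 3 had an unadjusted p under 0.05 (Eomes, Neurod2 and Foxp1). Over all 15450 genes, 2.32% passed, 0.796% higher and 1.52% lower, and 24.3% had an unadjusted p under 0.05. With the replicate block 1 of the 5 passed, Eomes, and 4.77% of all genes did, 2.09% higher and 2.68% lower. Groups that did not overlap were found for the same 3 factors, against 30.7% of all genes (16.2% higher and 14.4% lower). Eomes and Satb1 were higher in all 3 same-day pairs, as were 28.4% of all genes, and the other 3 were lower in all 3, as were 24.3%. With 5 members, these counts do not set the factors apart from the rest of the table. The median log2 fold change was -0.31 over the 5 and 0.03 over all genes, and the 5 did not share a direction: Eomes and Satb1 were positive, Tbr1, Foxp1 and Neurod2 negative.

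Levels of different factors can be compared only per length of transcript. Per kilobase of the deposited rows, the mean scaled values in the controls were 155.7 ± 12.9 for Foxp1, 60.86 ± 16.1 for Neurod2, 48.28 ± 18.9 for Tbr1, 41.17 ± 15.2 for Satb1 and 5.737 ± 1.13 for Eomes (SD, n = 3). Neurod2, Tbr1 and Satb1 overlapped in the controls and were not separated beyond their spread. With AAV-Sox11, where Neurod2 and Tbr1 overlapped, the order was Foxp1 (90.71 ± 6.97), Satb1 (50.52 ± 7.56), Neurod2 (39.03 ± 3.40), Tbr1 (34.48 ± 5.42) and Eomes (13.17 ± 2.40). Eomes stayed the lowest in both groups. Of the Foxp1 level per kilobase, the short row Foxp1-219 (348 bases) made up 88.41 in the controls and 36.55 with AAV-Sox11. That row shares exons with another annotated gene, and none of the 5 Foxp1 rows is annotated as coding. The place of Foxp1 in this order is therefore uncertain.

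The transcript rows of Foxp1 differed in direction, 4 negative and 1 positive, and none of the 5 is annotated as coding. Foxp1 lies on chromosome 6 (98925338 to 99522721, minus strand), with 31 annotated transcripts, 20 of them coding, and these 5 rows therefore cannot stand for its coding output. Rows were tested over all 26691 rows with the same limma fit, a test added after the values were seen. Foxp1-219 (ENSMUST00000176105) is a processed transcript of 3 exons that begins inside the gene, upstream of the other deposited Foxp1 rows. Its values were 33.01, 27.45 and 31.84 in the controls and 15.63, 12.47 and 10.06 with AAV-Sox11. Every AAV-Sox11 library was thus below every control, and the log2 fold change was -1.23 ± 0.25 (SE, limma adjusted p = 0.0508, and 0.0453 when blocked by day). The authors' deposited table gives -1.27 for Foxp1-219 and a false discovery rate of 0.00639. The annotated gene Gm20696 shares exons with it on the same strand, so its value is uncertain.

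Foxp1-226 (ENSMUST00000177230), annotated for nonsense-mediated decay, the pathway that degrades messages with an early stop, had 11.64, 15.69 and 17.37 in the controls and 34.4, 25.96 and 19.11 with AAV-Sox11. Its groups did not overlap either, in the opposite direction, with a narrow gap for C. Its log2 fold change was 0.77 ± 0.29 (SE, limma adjusted p = 0.172). The retained-intron row Foxp1-212 had -0.68 ± 0.24, with groups that did not overlap, and Foxp1-213 and Foxp1-203 had -0.41 ± 0.29 and -0.42 ± 0.26, with groups that did. As a share of the Foxp1 sum, Foxp1-226 was 9.09%, 10.9% and 10.9% in the controls and 31.4%, 25.0% and 17.0% with AAV-Sox11. The share of Foxp1-219 was 25.8%, 19.1% and 20%, and 14.3%, 12% and 8.93%. Each of these share differences had an exact permutation p of 0.1 (two-sided), the smallest that 3 against 3 libraries allow.

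The bases that no other Foxp1 transcript carries are shown, where these rows can be told apart from the rest of the gene (GENCODE M21 transcripts, GRCm38, 5′ to 3′ on the minus strand). Transcripts of other genes, such as Gm20696, were not compared. For Foxp1-219 they are the first exon of 156 bases. For Foxp1-226 they are exon 14 of 17, of which the coding part is printed, ending in the early stop, in capitals.
Foxp1-219, chr6:99436241-99436396: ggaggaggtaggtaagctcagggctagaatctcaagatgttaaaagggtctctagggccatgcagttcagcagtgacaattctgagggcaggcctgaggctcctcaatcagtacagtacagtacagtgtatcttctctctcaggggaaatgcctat
Foxp1-226, chr6:98941116-98941164: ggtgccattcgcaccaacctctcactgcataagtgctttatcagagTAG
Exon 14 of Foxp1-226 has 170 bases, and in GENCODE M21 no other Foxp1 transcript holds it. Of all bases of Foxp1-226, 92.3% also lie in coding Foxp1 transcripts, and of Foxp1-219 55.2%. How shared exons were counted is not stated in the sources used here, so the value of a row need not come from its own bases.

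**Figure D2:**
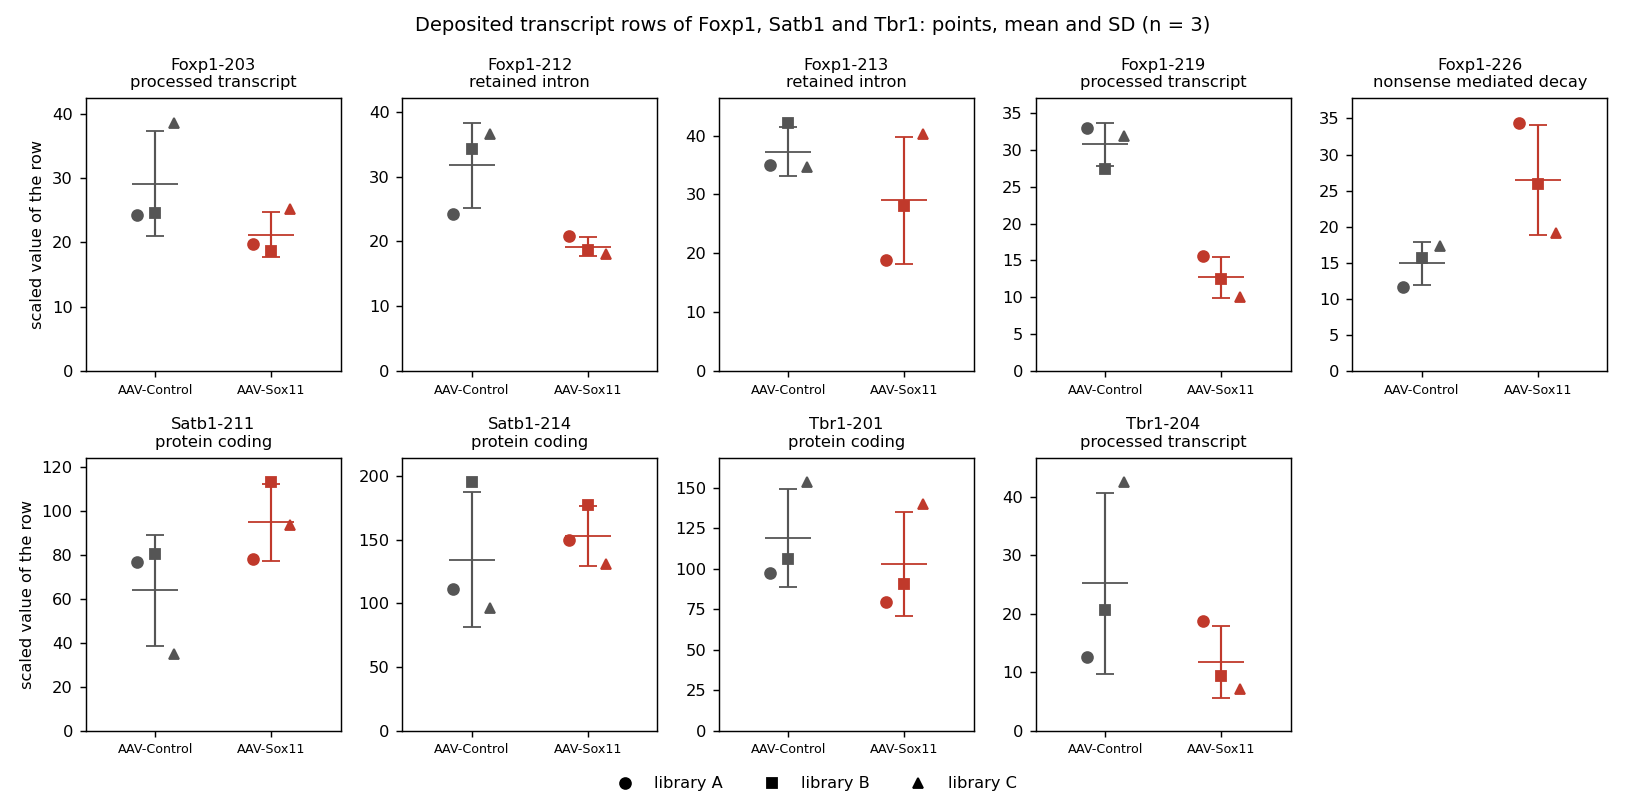
Scaled value of each deposited transcript row of Foxp1, Satb1 and Tbr1 by library, titled with the annotated transcript type, with means as horizontal marks and SD as bars (n = 3). Foxp1-219 is lower in all AAV-Sox11 libraries (10.06 to 15.63 against 27.45 to 33.01) and Foxp1-226 is higher in all of them (19.11 to 34.4 against 11.64 to 17.37).

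Tbr1 had 2 rows on chromosome 2 (61802930 to 61814114, plus strand). The coding Tbr1-201 had 97.08, 105.9 and 153.4 in the controls and 79.24, 90.35 and 139.8 with AAV-Sox11, with a log2 fold change of -0.22 ± 0.26 (SE, limma adjusted p = 0.662). The upstream noncoding Tbr1-204 was lower in level, with 12.61, 20.59 and 42.47, and 18.75, 9.354 and 7.041. Its log2 fold change was -0.99 ± 0.49 (SE, limma adjusted p = 0.280), and for A the AAV-Sox11 library was the higher. All 250 bases of the Tbr1 window printed above lie inside an exon of Tbr1-204, so the annotated start of the coding transcript is itself transcribed in that row's model.

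Satb1 had 2 coding rows on chromosome 17, of the gene at 51736187 to 51833290, minus strand. Satb1-214 had 111.6, 195.1 and 96.48 in the controls and 150.1, 177.6 and 130.7 with AAV-Sox11 (0.24 ± 0.26, SE, on the log2 scale). Satb1-211 had 76.7, 80.41 and 34.72, and 78.2, 113.2 and 93.52 (0.64 ± 0.32), higher in each same-day comparison, although AAV-Sox11 A was below control B. Neither passed (limma adjusted p = 0.631 and 0.293). The share of Satb1-211 in the gene was 32.1% ± 7.57 and 38.3% ± 3.77 (SD, n = 3, exact permutation p = 0.3, two-sided). Neurod2, on chromosome 11 (98325415 to 98329648, minus strand), has a single annotated transcript of 2 exons, and its row carries the whole gene.

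Over the 11 rows, 0 passed an adjusted p of 0.05 in limma, where 1.97% of all rows did (0.513% higher and 1.46% lower). In 5 of the 11 the groups did not overlap, against 28.3% of all rows. A false discovery rate under 0.05 in the authors' deposited table was held by 2 of the 11, Eomes and Foxp1-219, against 6.83% of all rows.

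Eomes was next set against each ganglion cell marker within the library. This ratio was chosen after the values were seen and is a description. Per 1000 of Thy1, the sorted surface protein, Eomes was 7.97, 7.96 and 11.5 in the controls and 14.1, 14.9 and 19.4 with AAV-Sox11, without overlap. Per 1000 of Slc17a6, which loads glutamate into vesicles, it was 15.1, 16.3 and 20.8, and 23.6, 19.4 and 17.5, so the groups overlapped. Per 1000 of Pou4f2, a POU-domain factor of many ganglion cells, it was 1134, 714.2 and 1236, and 818.2, 723.1 and 871, also with overlap and with a lower mean. Against 4 of the 8 measured markers (Rbpms, Nefl, Nefm and Thy1) the Eomes ratio was higher without overlap, and the ratio of the group means ran from 0.782 (Pou4f2) to 2.82 (Nefm) over the 8. The size of the ratio, and for Pou4f2 its direction, thus depended on the marker.

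The Neurod2 ratio was lower without overlap against 7 of the 8 markers, Pou4f1 excepted, from 0.205 (Pou4f2) to 0.856 (Nefm) of the control ratio over the 8. Foxp1 was lower without overlap against 4 of the 8, Tbr1 against 3 and Satb1 against 1, and none of these was higher without overlap against any. With AAV-Sox11, Slc17a6 and Pou4f2 were themselves higher without overlap (2.02 and 2.69 times the control mean), which lowers a ratio of any gene to them. Such ratios were not counted for other genes, so the counts do not set Eomes or these factors apart.

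**Figure D3:**
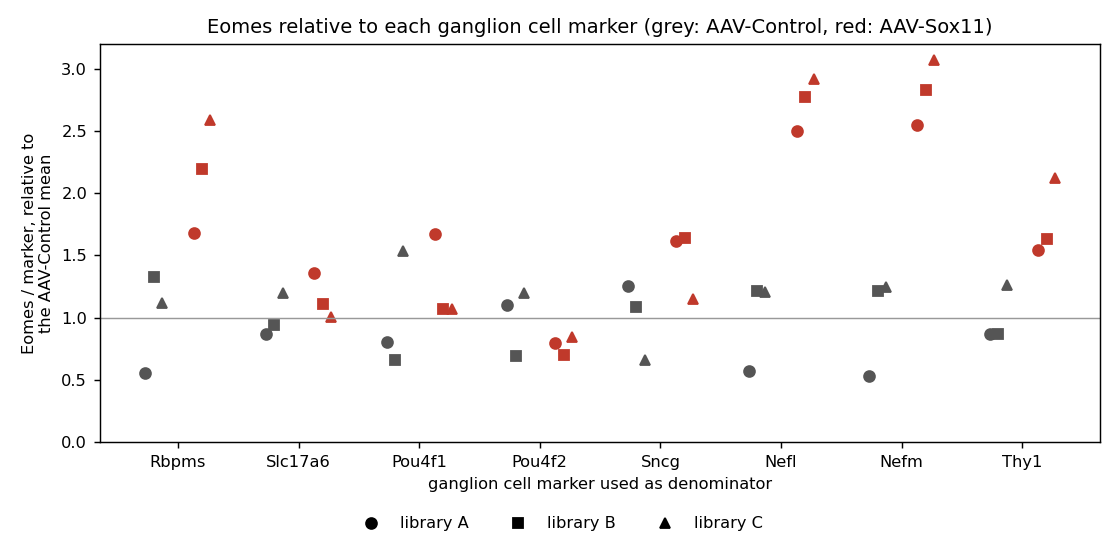
Eomes divided by each of 8 ganglion cell markers, relative to the AAV-Control mean of the same ratio, by library (control libraries in grey, AAV-Sox11 libraries in red). The groups separate for Rbpms, Nefl, Nefm and Thy1 and overlap for Slc17a6, Pou4f1, Pou4f2 and Sncg.

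Of 23 other transcription factors of ganglion cells, 13 were measured, and in limma 0 passed (0 higher and 0 lower, median log2 fold change -0.04). With the replicate block 2.09% of all genes rose, and 3 of the 13 did. These were Bcl11b, a zinc finger factor of long-projecting neurons also known as Ctip2, Pou4f2, and Meis2, a homeodomain factor. Bcl11b had 57.27, 190.2 and 138 in the controls and 384.7, 500.5 and 516.8 with AAV-Sox11. Its log2 fold change of 2.01 ± 0.40 (SE) exceeded that of Eomes, with a limma adjusted p of 0.0524, and 0.0285 with the block. Meis2 had 818.4, 1025 and 687.9, and 1382, 1505 and 1210 (0.71 ± 0.16, SE, limma adjusted p = 0.0584, and 0.0285 with the block). Pou4f2 had 14.55, 34.33 and 16.39, and 45.88, 67.5 and 62.34 (1.47 ± 0.35, SE, limma adjusted p = 0.0669, and 0.0383 with the block). For Bcl11b, Meis2 and Pou4f2, every AAV-Sox11 library was above every control. Pou4f1, a POU-domain factor found in many ganglion cells, had 0.78 ± 0.43 with overlapping groups. The list was chosen with earlier results known, so its counts are a description, and only its genes of largest change are named.

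Among relatives of the members, the Neurod genes were all negative. Neurod4, a bHLH factor that bipolar and amacrine cells also make, fell from 8486 ± 1775 to 4904 ± 419 (SD, n = 3, limma adjusted p = 0.0467). Neurod1, at home in photoreceptors and amacrine cells, had 2389 ± 810 and 1496 ± 255 (limma adjusted p = 0.149, and 0.0488 with the replicate block), and Neurod6, of an amacrine subset, 68.34 ± 16.9 and 52.32 ± 10.7. The log2 fold changes of Neurod4, Neurod1, Neurod2 and Neurod6 were -0.77, -0.64, -0.61 and -0.37. Beside them, the bipolar markers had a median of -0.76 (0 of 8 positive) and the rod markers of -0.57 (1 of 8 positive). Of 9 measured amacrine markers 3 fell, where 1.52% of all genes did. The part of these cells in the Neurod values was not tested. Among T-box genes, Tbx5 had 0.67 ± 0.23 (SE), Tbx2 -0.45 ± 0.26 and Tbx20, which is found with Eomes in ganglion cells, -0.17 ± 0.29. Foxp4 had 0.11 ± 0.38, and none of these 4 passed the threshold. Of the 8 measured relatives, 1 passed, lower, where 2.32% of all genes passed and 1.52% were lower. The relatives were chosen with earlier results known, so this count is a description.

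**Figure D4:**
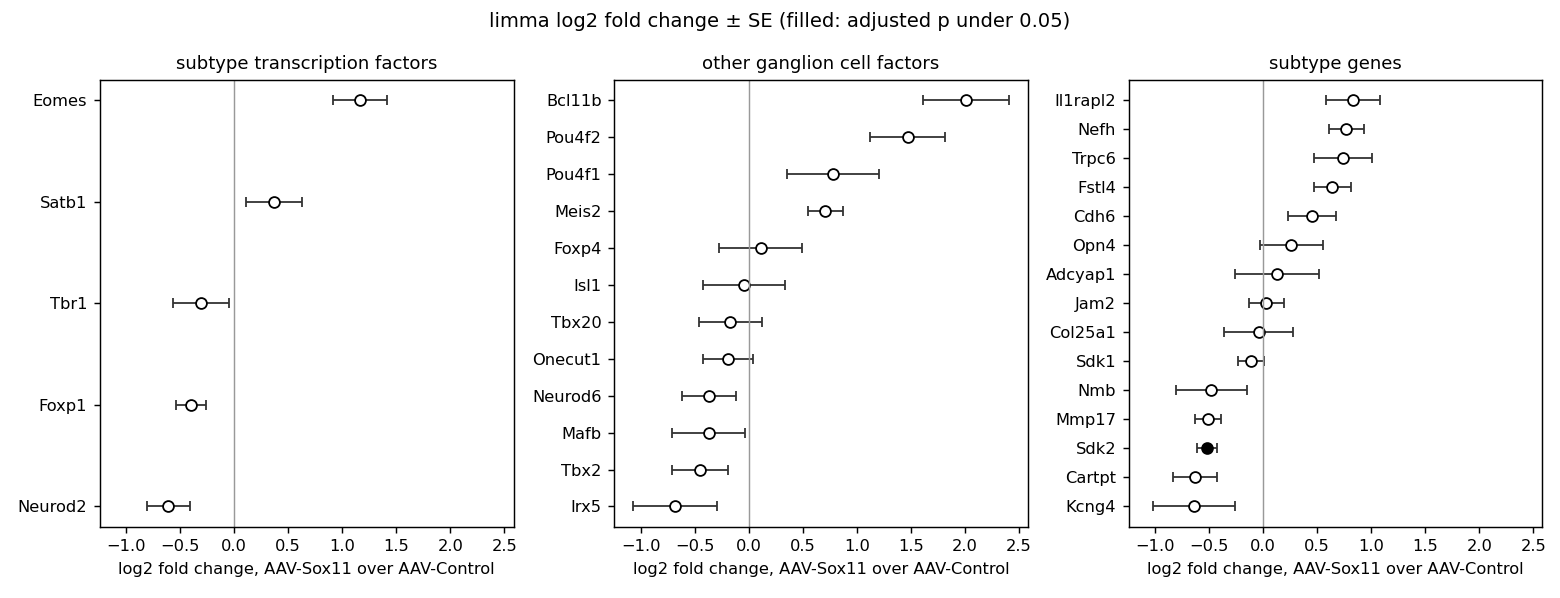
Log2 fold change of AAV-Sox11 over AAV-Control with its limma standard error for the 5 measured subtype factors, 12 of the 13 other ganglion cell factors and 15 subtype genes that are not transcription factors, where filled points have an adjusted p under 0.05. Sdk2 is the only filled point, at -0.52, and Bcl11b (2.01), Pou4f2 (1.47) and Eomes (1.16) lie farthest to the right.

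Subtype genes that the factors accompany were read next. Of 20 named, 15 were measured, with a median log2 fold change of 0.03. Where 0.796% of all genes rose and 1.52% fell, 0 of the 15 rose and 1 fell. Sdk2, an adhesion molecule of retinal synapses, was the 1 that fell (3990 ± 442 to 2768 ± 27.0, SD, n = 3, limma adjusted p = 0.0389). As for every gene in limma, its call and that of Neurod4 were lost without any 1 of the AAV-Sox11 libraries, and with the missing direction or the sex index as a covariate. Opn4, which encodes melanopsin and marks the cells that depend on Eomes, had 16.5, 25.5 and 14.46 in the controls and 17.73, 24.92 and 24.13 with AAV-Sox11, so that they overlapped (log2 fold change 0.26 ± 0.29, SE, limma adjusted p = 0.618). Adcyap1, the neuropeptide PACAP of these cells, had 0.13 ± 0.39, the channel Trpc6 0.74 ± 0.27 and Nmb, neuromedin B, -0.48 ± 0.33, none past the threshold. Beside 2.24-fold for Eomes, the fit thus gave 1.67-fold for Trpc6, 1.19-fold for Opn4, 1.09-fold for Adcyap1 and 0.716-fold for Nmb. The difference between these genes was not tested.

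Genes of direction-selective cells, in which Satb1 is known, were divided. Cartpt, a neuropeptide precursor, had -0.63 ± 0.20 (SE) and Mmp17, a metalloproteinase, -0.51 ± 0.12 (limma adjusted p = 0.0674, and 0.0360 with the replicate block). Fstl4 had 0.64 ± 0.17, Cdh6, a cadherin, 0.45 ± 0.22 and Col25a1, a collagen, -0.04 ± 0.32. Jam2, the adhesion molecule of J-type ganglion cells that make Tbr1, had 986.6 ± 221 and 994.0 ± 70.5 (SD, n = 3). Among alpha cell genes the largest were Il1rapl2 (0.83 ± 0.25), Nefh, the heavy neurofilament (0.77 ± 0.16, limma adjusted p = 0.0569, and 0.0380 with the block), and Kcng4, a potassium channel subunit (-0.64 ± 0.38).

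The genes whose pattern over the 6 libraries was most like each member were found by Pearson's r of log2 values among 11755 genes. For Eomes they were Glud1 (0.9999), Slc30a4 (0.9991) and Psma1 (0.9978), and for Satb1 Sema3a (0.9996), Uqcrb (0.9979) and Yipf1 (0.9975). For Tbr1 they were Dmc1 (0.9952), Ptchd4 (0.9946) and Rnf32 (0.9936), for Foxp1 Brinp1 (0.9972), Tcea2 (0.9962) and Cacna1c (0.9939), and for Neurod2 Eno2 (0.9961) and Abhd8 (0.9927). Such values are common here: r was over 0.95 for 373 genes with Eomes, 196 with Satb1, 132 with Foxp1, 118 with Neurod2 and 53 with Tbr1. The libraries differ in only 4 directions, and the part of this in the high values of r was not tested. Between members, r ran from -0.79 (Eomes and Neurod2) to 0.73 (Tbr1 and Foxp1), as a description over 6 libraries.

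**Figure D5:**
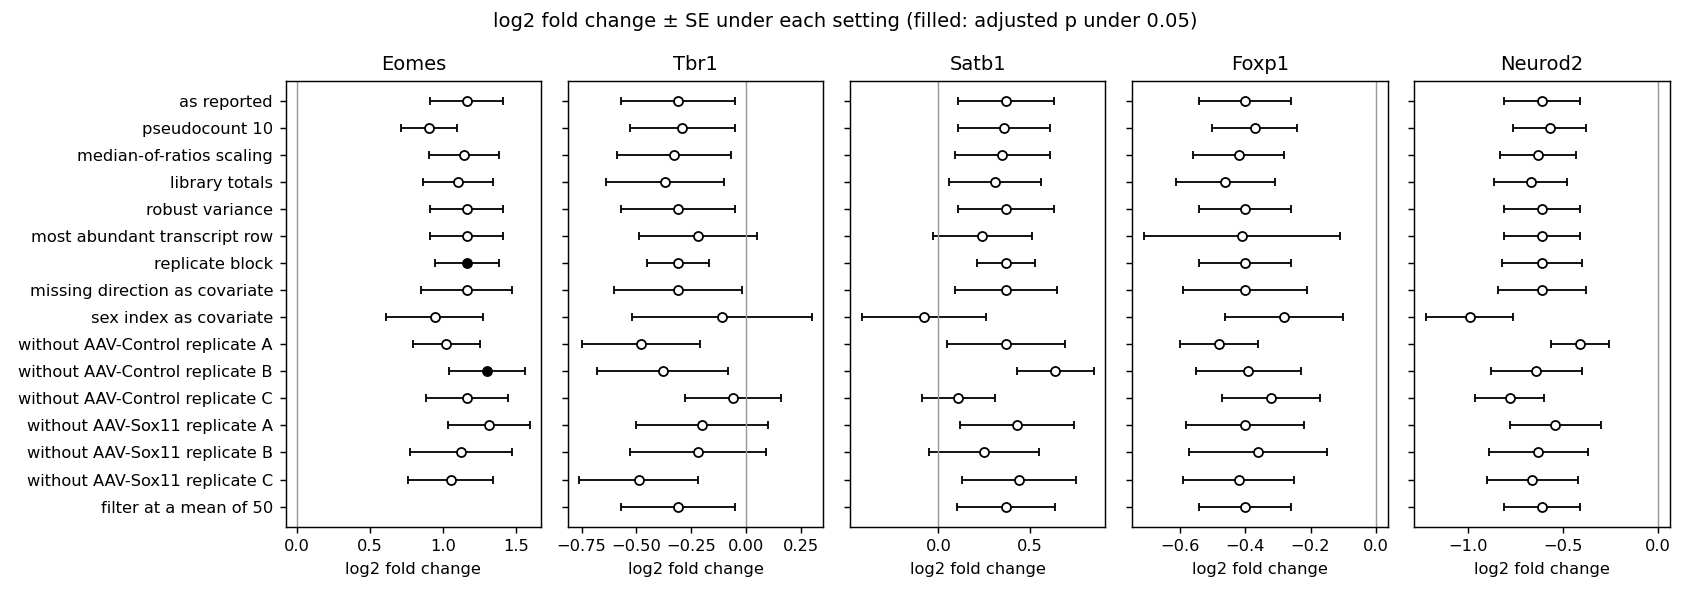
Log2 fold change with its limma standard error for each measured subtype factor under the reported fit and each alternative, where filled points have an adjusted p under 0.05. Only Eomes has filled points, with the replicate block (1.16) and without control B (1.30), and Satb1 crosses 0 with the sex index (-0.08).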

How the data were processed

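Retinal RNA was compared between 3 AAV-Control and 3 AAV-Sox11 libraries of sorted cells. CASAVA 1.8.2, edgeR and mm10 are named in the submitters' processing notes; aligner, counter and strand setting: not given in the sources used here. Whole-number columns that the authors deposited are treated as a score: of the 5 directions in which 6 libraries can differ, only 4 had spread (SD 9.48e-05 against 0.0165 from counting alone, natural log scale, 1177 rows of mean above 2000), so they are not plain counts. AAV-Sox11 A, B and C held 18.4%, 57.7% and 12.5% of the squared weight of that missing direction. The authors also deposited scaled columns, treated as a signal, which equal the whole numbers times a factor per library (0.9649 to 1.0425). The authors' log2 fold changes and p-values are named as deposited by them. Another 6 deposited columns of per-library values were not used.

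Signals of rows with the same gene name were summed to 15450 genes (unnamed rows, 0.422% to 0.517% of each library, left out). The sums were tested with limma 3.58.1 (R 4.3.3, trend) on log2(value + 1), which understates changes of low genes, with Benjamini-Hochberg adjustment over all genes. The fit was also run on simulated data with independent libraries, which lacked no direction. That run cannot show how the missing direction affects p-values here. SEs are those of the fit. Members and lists were chosen with earlier results of these data known. Of a list, genes past the threshold and up to 4 others of largest change are named; others named (Opn4, Adcyap1, Nmb, Neurod6, Tbx20, Foxp4, direction-selective genes, Jam2) were picked for their roles, with values seen. The nearest 3 genes by r were sought among non-predicted genes of mean at least 20. A few genes that these rules select are counted but not reported here by name. The sex index is log2 Xist minus the mean log2 of 4 Y-linked genes. For A, B and C it was 6.816, 6.793 and 5.262 in the controls and 6.865, 8.114 and 8.446 with AAV-Sox11. It thus runs along with the groups, and fits that include it cannot fully separate the 2.

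Libraries of a letter were prepared on the same day, per the series description; the deviations of same-letter libraries correlated at 0.0025, 0.793 and 0.236 for A, B and C. Annotation is GENCODE M21 (GRCm38, the build of mm10), and all 11 rows matched it.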

Additional observations from a re-analysis of the deposited data

How the results depend on the processing

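Each measured factor was refitted under up to 15 alternatives. With the replicate block (same-day pairing) 1 of the 5 factors passed: Eomes, at a log2 fold change of 1.16 (limma adjusted p = 0.0445), and the block changed no other factor's call. Without each library in turn, Eomes ranged from 1.02 to 1.31 and the factors that passed from 0 to 1, the 1 being Eomes without control B. With the sex index as a covariate, Satb1 turned to -0.08, and the cause was not tested. The index was higher in every AAV-Sox11 library than in every control, so this covariate also takes up part of the group difference. Over the alternatives, adjusted p-values of Eomes ran from 0.0445 to 0.294 and those of Tbr1, Satb1, Foxp1 and Neurod2 from 0.0727 to 0.918, and these 4 passed under none. The filter at a mean of 50 removes Eomes and gave it no value.

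Over all genes, 358 passed, 737 with the replicate block, and 0 with the missing direction or with the sex index as a covariate (limma, 2582 and 2702 at an unadjusted p under 0.05). Without each library in turn the count ran from 0 (without AAV-Sox11 A, B or C; limma, 3120, 1942 and 2953 unadjusted) through 138 without control A to 745 without control B. Of the calls in the reported fit 34.4% were higher. Among alternatives with calls this ran from 22.4% with library totals as scaling to 46.8% without control C. For Foxp1-219 the block moved the adjusted p from 0.0508 to 0.0453. The scaled values of Eomes and of the Foxp1 rows are low, at most 54.3, and the part of their level in the errors was not tested.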
